A study of Homo sapiens with 6 samples.

Results

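The 72 genes described here encode SR proteins, hnRNPs and core proteins of the spliceosome, and are the rows whose symbols begin with SRSF, HNRNP, SF3A, SF3B, PRPF, SNRP or U2AF followed by the letter or number of a family member, out of 18539 rows in the table. The pattern matched 94 rows, and 22 pseudogene rows were left out, 1 of them (HNRNPA1P48) by its name alone because the annotation types it as coding. The members were 12 SR proteins, 22 hnRNPs, 13 genes of U2AF, SF3A and SF3B, 13 PRPF genes and 12 SNRP genes, and 72 of the 72 passed the filter on low values and were tested.

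Introns are removed from pre-mRNA by the spliceosome, which is built on the intron from small nuclear ribonucleoprotein particles (snRNPs) and many further proteins. The U1 particle reads the 5′ splice site, U2AF and the U2 particle with its SF3A and SF3B complexes read the 3′ end of the intron and the branch site, and the joined U4, U6 and U5 particles then make up the catalytic core. SR proteins mostly recruit these parts to exons, while hnRNPs coat the transcript and often hold exons back, so the balance between them is known to set alternative splicing in tumour cells.

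RNA sequencing compared A375 cells, a human malignant melanoma line with an activating BRAF mutation, under 2 conditions. The shMMP9 group (3 libraries) carried a lentiviral pLKO.1 hairpin against the coding region of MMP9, which encodes a secreted gelatinase, and the shControl group (3 libraries) carried a control hairpin. Both were infected lines kept under puromycin selection and sequenced from total RNA. The labels give 1 MMP9 hairpin sequence and do not describe the control hairpin's sequence. They do not say whether replicates were separate cultures, so p-values measure the spread between these libraries, which may be technical.

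Libraries held an estimated 21854114 to 25895672 reads in shMMP9 and 24319956 to 28005524 in shControl. Levels below are the authors' upper-quartile-scaled gene counts, and each log2 fold change subtracts the shControl mean of log2(scaled count + 1) from the shMMP9 mean, a scale on which weak genes change less than they do in counts. MMP9 itself stood at 16.1, 14.6 and 17.1 in the shMMP9 libraries, against 26.1, 24.3 and 28.7 in the shControl libraries, without overlap of the groups (log2 fold change -0.69, SE 0.0847, adjusted p = 1.25e-05, limma). Of 8 melanoma or melanocyte markers, 6 were in the table with a summed level of 958 to 1040 in shMMP9 and 557 to 588 in shControl. SOX10 made up most of that sum (744 to 826 in shMMP9 and 358 to 395 in shControl), and MITF was lower in shMMP9 (26.7 to 28.3, against 33.1 to 38.0 in shControl). PMEL and MLANA, defining pigment-cell genes, were near 0 in both groups. Of 4 leukocyte markers 1 was in the table, with a level of 0.296 to 0.952 in shMMP9 and 0.214 to 0.747 in shControl. Genes of the mitochondrial genome took 0.617 to 0.708% of reads in shMMP9 and 1.64 to 1.79% in shControl. Keratinocyte markers (3 of 4 in the table) summed to 127 to 136 in shMMP9 and 70 to 81.6 in shControl, fibroblast markers (5 of 5) to 18.8 to 22.5 in shMMP9 and 37.7 to 46.3 in shControl, and endothelial markers (4 of 4) to 6.35 to 8.88 in shMMP9 and 49 to 57.4 in shControl. TIE1 made up most of the endothelial sum (3.88 to 5.08 in shMMP9 and 46.5 to 53.4 in shControl), while PECAM1 was at 1.4 to 2.62 in shMMP9 and 0.891 to 1.57 in shControl. The part of these shifts in the results was not tested. shControl replicate 1 stood apart, with a chi-square per gene of 14.15 and 9.72 against the other shControl libraries, where other pairs within a group gave 2.51 to 4.74. Members whose call changes without it are named in the paragraphs on their families.

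Across the whole group, 14 genes rose in shMMP9, 22 fell and 36 did not pass the test at an adjusted p of 0.05 (limma, Benjamini-Hochberg over all genes tested). Over all 17194 genes tested, 57.5% were called (25% higher and 32.5% lower), so a called splicing gene is not unusual in this comparison. The share of members called was 50%. Splicing genes are strongly expressed, with a median scaled count of 133.7, and 65 of the 72 had a mean of 30 or more. Among the 6337 genes of the table at that level, 66.7% were called, 31.4% higher and 35.3% lower. The split between rises and falls depends on the scaling: with median-of-ratios or total-read scaling in place of the deposited one, 20 members rose and 17 fell. All genes tested shifted too, to 5013 higher and 4875 lower with median-of-ratios scaling and 4988 and 4898 with total-read scaling. With the deposited scaling these were 4304 and 5584. Without shControl replicate 1, 16 members rose and 26 fell, against 4511 and 5714 of all genes. The groups did not overlap for 43 members (59.7%), against 62.7% of all genes tested and 71.1% of those at a mean of 30 or more.

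Most of the changes were small. The median absolute log2 fold change was 0.154 for the members, 0.278 for all genes tested and 0.235 for genes at a mean of 30 or more. The median signed change was -0.069 for the members and -0.047 for all genes tested. Only 5 members were called with a log2 change of 0.5 or more in size, a class that held 26.6% of all genes tested and 19.9% of those at a mean of 30 or more. These were SNRPB2 and SRSF8, which rose, and SF3B3, PRPF39 and HNRNPD, which fell. SNRPB2 was the 1 member past a log2 change of 1, where 8.17% of all genes tested and 5.78% of those at a mean of 30 or more lay. Summed over the 72 genes, the scaled counts came to 15864, 15937 and 15556 in the shMMP9 libraries, against 16550, 16637 and 16282 in the shControl libraries. The shMMP9 sums were all below the shControl sums. As a share of estimated reads the members took 1.82, 1.84 and 1.79% in the shMMP9 libraries and 1.85, 1.83 and 1.79% in the shControl libraries, and by this measure the groups overlapped. In bulk samples such as these, fewer cells of a type and less RNA per cell cannot be told apart.

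**Figure D1:**
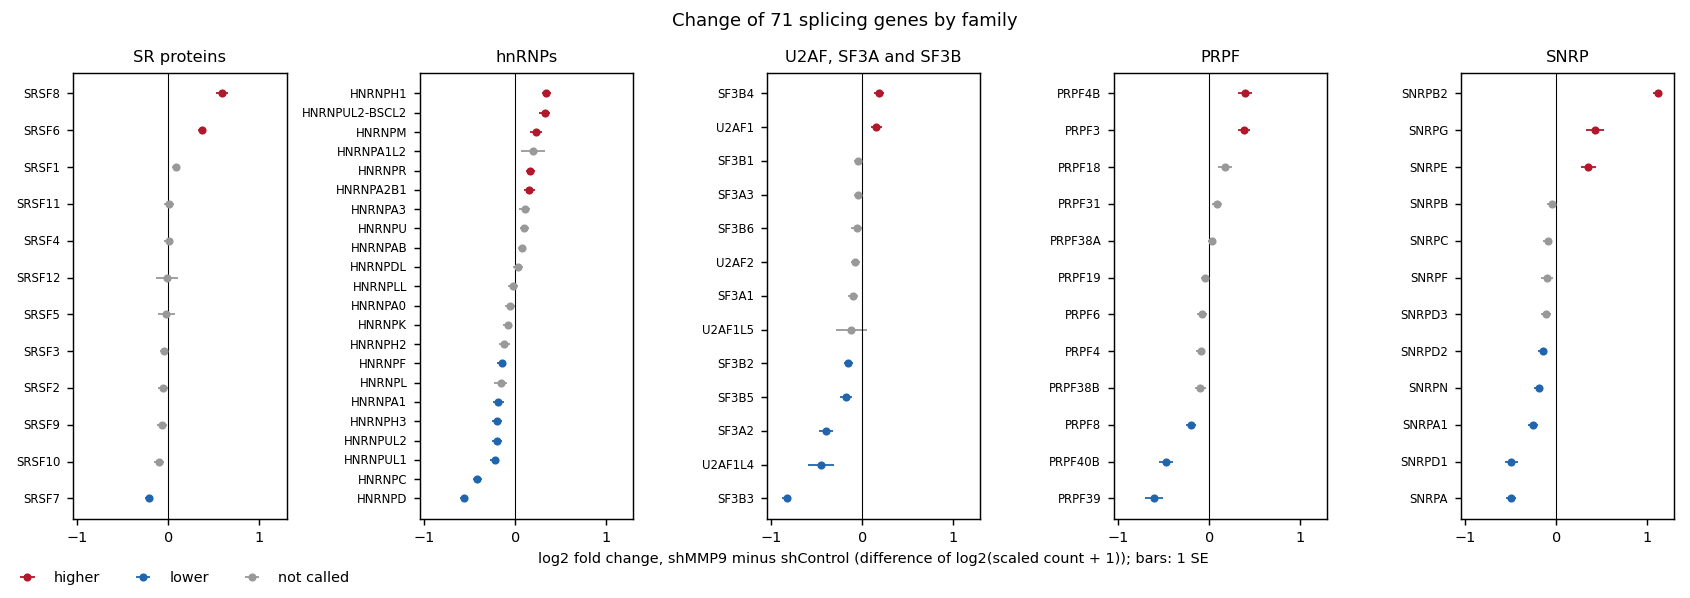
Log2 fold change (shMMP9 minus shControl, horizontal axis, with bars of 1 SE) of 71 of the 72 splicing genes, in 5 panels by family, with genes that passed the test in red (higher) or blue (lower) and the others in grey. SNRPB2 at 1.12 and SF3B3 at -0.83 lie farthest from 0, and most SR proteins lie close to it.

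Among the SNRP genes, which encode proteins of the snRNPs themselves, 3 of 12 rose, 5 fell and 4 did not pass the test. That is 66.7% called, against 57.5% of all genes tested. SNRPB2 encodes the U2 B″ protein, which binds a stem-loop of U2 snRNA together with its partner U2 A′, the product of SNRPA1. SNRPB2 stood at 229, 222 and 209 in the shMMP9 libraries, against 103, 98.0 and 102 in the shControl libraries, a mean of 220.0 ± 10.5 in shMMP9 and 101 ± 2.48 in shControl (SD, n = 3 each). Every shMMP9 library had more than 2 times the level of any shControl library (log2 fold change 1.12, SE 0.0498, adjusted p = 5.48e-10, limma). SNRPA1 stood at 80.7, 86.3 and 77.0 in the shMMP9 libraries, against 97.9, 101 and 93.1 in the shControl libraries, so it was lower in each shMMP9 library (log2 fold change -0.26, SE 0.0557, adjusted p = 0.00144, limma). The pair thus moved in opposite directions. The log2 level of SNRPB2 minus that of SNRPA1 was 1.42 ± 0.071 in shMMP9 and 0.05 ± 0.088 in shControl (SD, n = 3 each). That difference of 1.37 had p = 0.1 in an exact two-sided permutation test, the smallest p that 3 against 3 libraries allow. The pair was picked for its partnership with its fold changes already known, so this p adds no support for a shift between partners.

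The stretches just upstream of the annotated starts of these U2 partners are shown because the pair shares a particle but not a direction of change. They are taken from RefSeq promoter sequences on GRCh38.p14, end before both the RefSeq and the GENCODE start of the gene, and read 5′ to 3′ on the gene's strand. The SNRPB2 stretch is chr20:16729821-16729960 on the plus strand and the SNRPA1 stretch is chr15:101295283-101295422 on the minus strand. Capitals mark ACTTCCGG, the reverse complement of the ETS-type motif CCGGAAGT, which is present in the SNRPA1 stretch. None of the 7 motifs searched is in the SNRPB2 stretch as an exact match, the only kind counted. That stretch does hold CCGGAAGC, which differs from the ETS-type motif in its last base alone. Whether the motif bears on the change of either gene was not tested.
SNRPB2: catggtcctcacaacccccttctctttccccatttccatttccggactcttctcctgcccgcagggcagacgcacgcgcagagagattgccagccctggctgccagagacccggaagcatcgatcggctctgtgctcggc
SNRPA1: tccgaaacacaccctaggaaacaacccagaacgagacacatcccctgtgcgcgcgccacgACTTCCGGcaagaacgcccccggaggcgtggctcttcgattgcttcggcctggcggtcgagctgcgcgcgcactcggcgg

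The SNRPB2 gene spans chr20:16729961-16742563 on the plus strand of GRCh38, and its neighbours moved in both directions. Among the 10 tested genes on each side, 8 rose and 4 fell, with a median log2 fold change of 0.08. Of windows of 50 bases in its transcript, 3.7% also occur in another gene, while 41.5% of those of SNRPA1 do.

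The Sm ring is the collar of proteins that holds the snRNA in the U1, U2, U4 and U5 particles, and its genes did not move together. SNRPG stood at 143, 143 and 132 in the shMMP9 libraries, against 127, 87.9 and 97.9 in the shControl libraries, and SNRPE, another ring subunit, stood at 176, 179 and 152 in the shMMP9 libraries, against 149.7, 126 and 120.4 in the shControl libraries. Both rose without overlap of the groups (SNRPG log2 fold change 0.43, SE 0.0996, adjusted p = 0.00241; SNRPE log2 fold change 0.35, SE 0.0799, adjusted p = 0.00192, limma). SNRPD1, a ring subunit that pairs with SmD2, stood at 79.1, 81.6 and 73.0 in the shMMP9 libraries, against 124, 107 and 101 in the shControl libraries, and fell without overlap of the groups (log2 fold change -0.50, SE 0.0713, adjusted p = 5.24e-05, limma). SNRPD2 also fell (log2 fold change -0.15, adjusted p = 0.0231, limma), while SNRPB, SNRPD3 and SNRPF had values of -0.05, -0.11 and -0.11 and did not pass the test, though SNRPF was called without shControl replicate 3 (-0.19). Over the 7 ring genes, 2 rose, 2 fell and 3 did not pass, where 25% of all genes tested were higher and 32.5% lower. In log2 levels, SNRPE minus SNRPD1 was 1.1 ± 0.054 in shMMP9 and 0.25 ± 0.013 in shControl (SD, n = 3 each). That difference of 0.85 had p = 0.1 (exact two-sided permutation), the smallest possible. This pair too was picked with its fold changes known, so the p adds no support. SNRPB had the highest level per kilobase of the SNRP genes, 339.5 in shMMP9 and 351 in shControl, with length taken as the median of its principal transcripts in GENCODE release 29.

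SNRPD1 lies on chromosome 18, where most genes moved the same way. Of its 20 nearest tested neighbours 1 rose and 15 fell, with a median of -0.61, and of 170 genes on the chromosome with a mean scaled count of 5 or more, 18 rose and 126 fell, with a median of -0.45. The part of this chromosome-wide difference in the value of SNRPD1 was not tested. Reads of SNRPG and SNRPE could be divided with copies, since 22.9% and 21.2% of their 50-base windows also occur in other genes.

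SNRPA encodes U1 A, which binds a stem-loop of U1 snRNA. Its level was 92.6, 88.1 and 98.9 in the shMMP9 libraries, against 135, 134 and 127 in the shControl libraries, lower in every shMMP9 library (log2 fold change -0.50, SE 0.054, adjusted p = 4.01e-06, limma). SNRPC, whose product U1 C contacts the 5′ splice site, had a log2 fold change of -0.10 and did not pass the test (adjusted p = 0.108, limma). SNRPN, which encodes the Sm protein that takes the place of SmB mainly in brain, fell slightly (log2 fold change -0.19, adjusted p = 0.00522, limma). The call of SNRPD2 ended without shMMP9 replicate 1 (-0.16), shMMP9 replicate 2 (-0.14), shMMP9 replicate 3 (-0.15) or shControl replicate 3 (-0.10), with the log2 fold change under each left-out library in brackets. It also ended under the other scalings.

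Of the 13 genes of U2AF, SF3A and SF3B, 2 rose, 5 fell and 6 did not pass the test. That is 53.8% called, against 57.5% of all genes tested. The change with the largest size was in SF3B3, the scaffold subunit of SF3B, the complex that clamps the branch site. SF3B3 stood at 302, 304 and 301 in the shMMP9 libraries, against 503, 564 and 552 in the shControl libraries, a mean of 302 ± 1.75 in shMMP9 and 539.7 ± 32.6 in shControl (SD, n = 3 each). The shMMP9 level was 0.560 times that of shControl, and the groups were far apart (log2 fold change -0.83, SE 0.0523, adjusted p = 1.89e-08, limma). SF3B1, the subunit that holds the branch helix, stood at 227, 228 and 213 in the shMMP9 libraries, against 236, 220.4 and 231 in the shControl libraries, and its groups overlapped (log2 fold change -0.04, adjusted p = 0.462, limma). In log2 levels, SF3B3 minus SF3B1 was 0.44 ± 0.049 in shMMP9 and 1.23 ± 0.135 in shControl (SD, n = 3 each). That difference of -0.79 had p = 0.1 (exact two-sided permutation), the smallest possible. With fold changes known when the pair was picked, the p adds no support. Of the subunits of its complex, SF3B3 had the only called change of 0.5 or more among the members.

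The other SF3B subunits changed less or did not pass. SF3B2 (log2 fold change -0.15, adjusted p = 0.0177, limma) and SF3B5 (log2 fold change -0.18, adjusted p = 0.0298, limma) fell slightly and SF3B4, which contacts RNA upstream of the branch site, rose slightly. SF3B4 stood at 169, 162 and 178 in the shMMP9 libraries, against 145, 159 and 144 in the shControl libraries, without overlap (log2 fold change 0.18, SE 0.0544, adjusted p = 0.0106, limma). SF3B6, which lies near the branch adenosine, had a value of -0.06 and did not pass. PHF5A, a small SF3B subunit whose symbol falls outside the pattern, stood at 33.3, 36.7 and 32.5 in the shMMP9 libraries, against 17.7, 17.8 and 17.8 in the shControl libraries, and rose without overlap of the groups (log2 fold change 0.91, SE 0.0691, adjusted p = 1.26e-07, limma). Within 1 complex, the shMMP9 level of PHF5A was 1.93 times that of shControl and that of SF3B3 0.560 times.

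SF3B3 spans chr16:70523788-70577670 on the plus strand of GRCh38. Of its 20 nearest tested neighbours 3 rose and 9 fell, with a median of -0.14. The adjacent gene MTSS1L fell too (log2 fold change -0.74, adjusted p = 3.41e-07, limma), and the other adjacent gene, COG4, did not pass the test (log2 fold change -0.08, adjusted p = 0.308, limma). Whether the fall of SF3B3 goes with its position was not tested. Of its 50-base windows, 0.651% occur in another gene.

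In SF3A, which joins SF3B in the U2 particle, SF3A2 fell and SF3A1 and SF3A3 did not pass. SF3A2 stood at 100.5, 91.8 and 109 in the shMMP9 libraries, against 119.9, 148 and 129.6 in the shControl libraries, and the groups did not overlap (log2 fold change -0.40, SE 0.0768, adjusted p = 6.40e-04, limma). Its exons overlap those of PLEKHJ1 on the opposite strand, which also fell with a log2 change of -0.54. The strand setting of the counting is not given in the sources used here, so reads of these genes cannot be told apart. The log2 values of SF3A1 and SF3A3 were -0.10 and -0.04.

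U2AF reads the end of the intron: the product of U2AF2 binds the polypyrimidine tract and that of U2AF1 the AG at the splice site. U2AF2 stood at 302, 297 and 310.5 in the shMMP9 libraries, against 307, 335 and 320.5 in the shControl libraries and had the highest level per kilobase of these genes, 179 in shMMP9 and 189 in shControl. Its groups overlapped and it did not pass the test (log2 fold change -0.08, adjusted p = 0.181, limma), though it was called without shControl replicate 1 (log2 fold change -0.11). U2AF1 stood at 75.2, 68.9 and 73.9 in the shMMP9 libraries, against 68.5, 66.1 and 61.0 in the shControl libraries, and rose slightly without overlap of the groups (log2 fold change 0.16, SE 0.0585, adjusted p = 0.0361, limma). Its value is uncertain, because 96.8% of its 50-base windows also occur in the near-identical U2AF1L5. That copy had a log2 fold change of -0.12 and did not pass the test. In log2 levels, U2AF1 minus U2AF1L5 was 2.76 ± 0.321 in shMMP9 and 2.48 ± 0.446 in shControl (SD, n = 3 each). These groups overlapped, and the difference of 0.28 had p = 0.5 (exact two-sided permutation). U2AF1L4, a shorter relative of U2AF1, stood at 4.73, 5.18 and 5.44 in the shMMP9 libraries, against 9.14, 7.62 and 5.75 in the shControl libraries, and fell without overlap of the groups (log2 fold change -0.46, SE 0.141, adjusted p = 0.0138, limma). Its exons overlap PSENEN on the opposite strand, and 42.9% of its windows occur in another gene.

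Several small changes of this family lay near the threshold and lost their call when a library was left out, with the log2 fold change then found in brackets. The call of U2AF1 ended without shMMP9 replicate 1 (0.13), shMMP9 replicate 3 (0.14) or shControl replicate 3 (0.11), and that of SF3B4 without shMMP9 replicate 3 (0.15) or shControl replicate 3 (0.16). The call of U2AF1L4 ended without shMMP9 replicate 1 (-0.41) or shControl replicate 1 (-0.32), and that of SF3B5 without shMMP9 replicate 1 (-0.20), shMMP9 replicate 2 (-0.13) or shControl replicate 2 (-0.15). The call of SF3B2 ended without shMMP9 replicate 1 (-0.16), shMMP9 replicate 2 (-0.15), shMMP9 replicate 3 (-0.15), shControl replicate 2 (-0.13) or shControl replicate 3 (-0.14). In the family as a whole, no gene rose without shMMP9 replicate 3 or without shControl replicate 3 and 1 rose without shMMP9 replicate 1. SF3A1, not called with all libraries, was called without shControl replicate 1 (-0.16). The number that fell was 2 without shMMP9 replicate 1, and 3 without shMMP9 replicate 2, without shControl replicate 2 or under either other scaling.

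**Figure D2:**
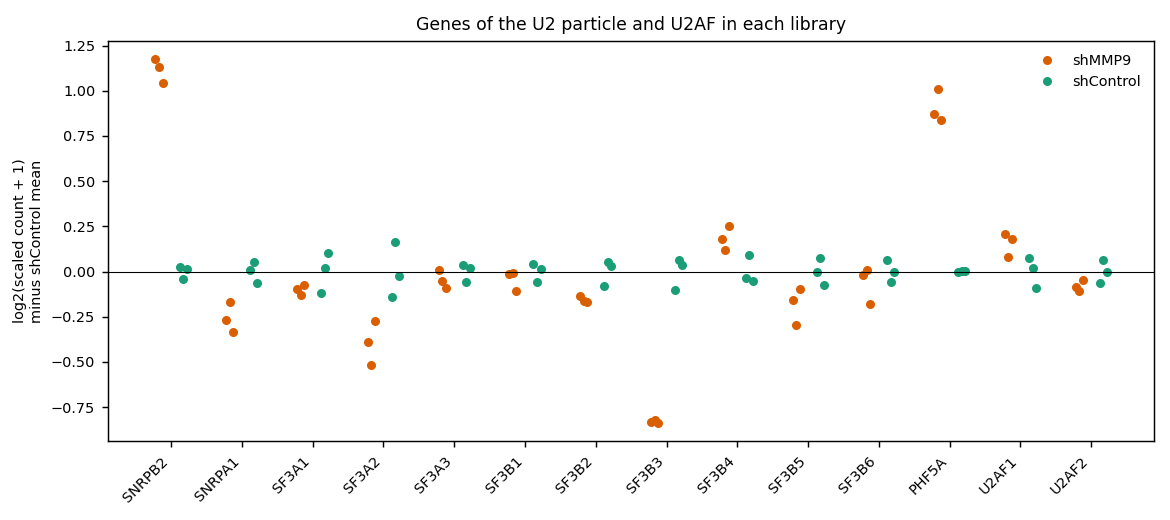
Level of genes of the U2 particle and of U2AF in each library, as log2(scaled count + 1) minus the mean of the shControl libraries (vertical axis), with shMMP9 libraries in orange left of shControl libraries in green. SNRPB2 and PHF5A lie about 1 log2 unit above the shControl mean and SF3B3 lies at -0.83, while the other subunits stay within about 0.5 of it.

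PRPF genes, named after yeast pre-mRNA processing mutants, include tri-snRNP subunits, U1-associated proteins and a kinase. Of the 13, 2 rose, 4 fell and 7 did not pass the test. That is 46.2% called, against 57.5% of all genes tested. PRPF3, a U4/U6 protein, stood at 55.2, 57.5 and 51.5 in the shMMP9 libraries, against 45.8, 39.4 and 40.5 in the shControl libraries, and PRPF4B, a kinase that acts on tri-snRNP proteins, stood at 59.2, 61.9 and 58.3 in the shMMP9 libraries, against 51.7, 40.9 and 43.6 in the shControl libraries. Both rose, with each shMMP9 library above each shControl library (PRPF3 log2 fold change 0.38, SE 0.0674, adjusted p = 3.17e-04; PRPF4B log2 fold change 0.40, SE 0.0758, adjusted p = 5.71e-04, limma). PRPF4, which binds PRPF3 in the U4/U6 particle, stood at 137, 133 and 126 in the shMMP9 libraries, against 136, 144 and 143 in the shControl libraries, and its groups overlapped (log2 fold change -0.10, adjusted p = 0.119, limma). Taken as log2 levels, PRPF3 minus PRPF4 was -1.26 ± 0.05 in shMMP9 and -1.73 ± 0.154 in shControl (SD, n = 3 each). That difference of 0.47 had p = 0.1 (exact two-sided permutation), the smallest possible. The fold changes were known when this pair was picked, so the p adds no support.

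PRPF8, the large U5 protein at the centre of the spliceosome, stood at 410.3, 415 and 422 in the shMMP9 libraries, against 440.2, 498 and 502 in the shControl libraries, and fell slightly without overlap of the groups (log2 fold change -0.20, SE 0.0561, adjusted p = 0.00705, limma). PRPF6 and PRPF31, which bridge the U5 and U4/U6 particles, had log2 fold changes of -0.08 and 0.08 and did not pass the test. Over the 5 tri-snRNP members (PRPF3, PRPF4, PRPF6, PRPF8 and PRPF31), 1 rose, 1 fell and 3 did not pass. Of all genes tested, 25% were higher and 32.5% lower. PRPF19, the ubiquitin ligase that gives its name to the PRP19 complex, had the highest level per kilobase of the PRPF genes, 121 in shMMP9 and 125 in shControl, and did not pass the test (log2 fold change -0.05, adjusted p = 0.446, limma).

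The falls of most size in this family were in genes linked to U1. PRPF39, a U1-associated protein, stood at 12.3, 11.5 and 9.85 in the shMMP9 libraries, against 19.8, 16.5 and 16.6 in the shControl libraries, without overlap of the groups (log2 fold change -0.61, SE 0.102, adjusted p = 1.94e-04, limma). PRPF40B, a relative of the yeast U1 protein Prp40, stood at 22.4, 23.5 and 27.4 in the shMMP9 libraries, against 33.9, 35.4 and 33.4 in the shControl libraries, without overlap (log2 fold change -0.47, SE 0.0769, adjusted p = 1.51e-04, limma). The exons of PRPF39 and PRPF40B overlap genes on the opposite strand, FKBP3 and FMNL3, both of which rose, with log2 changes of 0.29 and 0.26. PRPF4 and PRPF6, not called with all libraries, were called without shControl replicate 1, with log2 fold changes of -0.12 and -0.14. Under the other scalings 4 PRPF genes rose, PRPF18 and PRPF31 being the added ones.

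Of the 12 SR proteins, 2 rose, 1 fell and 9 did not pass the test, with a median absolute log2 fold change of 0.065. That is 25% called, against 57.5% of all genes tested, and the difference was not tested. SRSF8, a close relative of SRSF2, stood at 45.5, 41.1 and 43.8 in the shMMP9 libraries, against 30, 28.7 and 26.9 in the shControl libraries. SRSF6, an SR protein that acts on exonic enhancers, stood at 125, 127 and 121 in the shMMP9 libraries, against 96.4, 93.0 and 98.0 in the shControl libraries. Both rose, and their groups did not overlap (SRSF8 log2 fold change 0.59, SE 0.0652, adjusted p = 4.69e-06; SRSF6 log2 fold change 0.37, SE 0.0474, adjusted p = 1.81e-05, limma). SRSF7, an SR protein with a zinc knuckle, stood at 115, 115 and 111 in the shMMP9 libraries, against 133, 133 and 129.7 in the shControl libraries, and fell without overlap of the groups (log2 fold change -0.21, SE 0.0452, adjusted p = 0.00116, limma). SRSF2 itself stood at 190.0, 176 and 195 in the shMMP9 libraries, against 197, 201 and 185 in the shControl libraries, with overlapping groups (log2 fold change -0.06, adjusted p = 0.389, limma). In log2 levels, SRSF8 minus SRSF2 was -2.08 ± 0.046 in shMMP9 and -2.72 ± 0.046 in shControl (SD, n = 3 each). That difference of 0.65 had p = 0.1 (exact two-sided permutation), the smallest possible. Again the pair was picked with its fold changes known, so the p adds no support.

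SRSF1, the founding member that promotes exon inclusion, had the highest level per kilobase of the SR proteins, 199 in shMMP9 and 187 in shControl. It stood at 302, 301 and 299 in the shMMP9 libraries, against 281, 292 and 277 in the shControl libraries, and each shMMP9 library was above each shControl library, but it did not pass the test (log2 fold change 0.09, adjusted p = 0.118, limma). It was called under the other scalings. Of its windows, 85.1% also occur in a locus on the same strand, AC015813.2, which was itself weakly expressed (mean 5.78 in shMMP9 and 7.83 in shControl). The remaining SR proteins, SRSF3, SRSF4, SRSF5, SRSF9, SRSF10, SRSF11 and SRSF12, had log2 fold changes between -0.10 and 0.01. SRSF12, a weakly expressed SR protein, was the lowest of the 72 genes, with a mean scaled count of 0.425 and as few as 10 estimated reads in a library, so a modest change was not detectable there at this depth. The scaled counts of the SR proteins summed to 1635, 1619 and 1640 in the shMMP9 libraries and 1675, 1626 and 1572 in the shControl libraries, and the groups overlapped.

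The hnRNPs were the most strongly expressed members, and 5 of 22 rose, 7 fell and 10 did not pass the test. That is 54.5% called, against 57.5% of all genes tested. HNRNPD (AUF1), which binds AU-rich elements and is known for its part in mRNA decay, stood at 260.0, 264 and 264 in the shMMP9 libraries, against 398, 396 and 373 in the shControl libraries. Its groups were far apart (log2 fold change -0.56, SE 0.0465, adjusted p = 2.76e-07, limma). Its paralogue HNRNPDL, also on chromosome 4, stood at 188, 184 and 177 in the shMMP9 libraries, against 192, 176 and 169 in the shControl libraries, with overlapping groups (log2 fold change 0.03, adjusted p = 0.65, limma). Of the 20 tested neighbours of HNRNPD 1 rose and 12 fell, with a median of -0.39, and their part in its value was not tested. HNRNPC, which binds uridine tracts and packages nascent transcripts, stood at 468, 472 and 472 in the shMMP9 libraries, against 624, 641 and 622 in the shControl libraries, and the groups did not overlap (log2 fold change -0.42, SE 0.0458, adjusted p = 4.54e-06, limma). A share of 27.6% of its windows occurs in other genes, mostly the pseudogene HNRNPCP2. HNRNPUL1, a relative of the scaffold protein hnRNP U, stood at 414, 396 and 416 in the shMMP9 libraries, against 456, 497 and 482 in the shControl libraries, and fell without overlap of the groups (log2 fold change -0.23, SE 0.0501, adjusted p = 0.00162, limma).

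HNRNPH1, which binds runs of guanines, stood at 459, 472 and 441 in the shMMP9 libraries, against 370.5, 351 and 359.9 in the shControl libraries, and rose without overlap of the groups (log2 fold change 0.34, SE 0.0481, adjusted p = 4.48e-05, limma). HNRNPH2, its close paralogue, stood at 64.1, 70.5 and 61.4 in the shMMP9 libraries, against 74.6, 67.5 and 71.4 in the shControl libraries and did not pass the test (log2 fold change -0.12, adjusted p = 0.106, limma), and HNRNPH3 fell (log2 fold change -0.20, adjusted p = 0.00747, limma). For HNRNPH1 minus HNRNPH2 the log2 value was 2.79 ± 0.055 in shMMP9 and 2.33 ± 0.034 in shControl (SD, n = 3 each). The groups thus differed by 0.46, with p = 0.1 (exact two-sided permutation), the smallest possible. As the pair was picked with its fold changes known, the p adds no support. The H-type genes therefore gave 1 rise, 1 fall and 1 gene that did not pass, where 25% of all genes tested were higher and 32.5% lower. HNRNPM, which acts on alternative exons, stood at 371, 361 and 371 in the shMMP9 libraries, against 283, 352 and 313 in the shControl libraries, and rose slightly without overlap of the groups (log2 fold change 0.22, SE 0.0666, adjusted p = 0.0113, limma).

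HNRNPA1 and HNRNPA2B1 encode the classic A/B-type proteins, which bind UAG-containing sites and often silence exons. HNRNPA2B1 had the highest level per kilobase of all 72 genes, 533 in shMMP9 and 479 in shControl, with a median principal transcript of 2604 bases. Its longest principal transcript has 3497 bases, and its rank above HNRNPA1 (397 in shMMP9 and 451 in shControl) depends on the length chosen. It stood at 1397, 1439 and 1330.0 in the shMMP9 libraries, against 1316, 1231 and 1193 in the shControl libraries, and rose slightly without overlap of the groups (log2 fold change 0.16, SE 0.0597, adjusted p = 0.039, limma). HNRNPA1, the member with the highest scaled count, stood at 1646, 1690.0 and 1567 in the shMMP9 libraries, against 1927, 1835 and 1819 in the shControl libraries, and fell slightly without overlap of the groups (log2 fold change -0.19, SE 0.0596, adjusted p = 0.0161, limma). Both calls ended when some libraries were left out and that of HNRNPA1 also under the other scalings. Reads of HNRNPA1 may be divided with its pseudogenes, since 28.8% of its windows occur elsewhere. Other small calls were a rise of HNRNPR (log2 fold change 0.16, adjusted p = 0.0107, limma) and falls of HNRNPUL2 (log2 fold change -0.20, adjusted p = 0.00553, limma) and HNRNPF (log2 fold change -0.15, adjusted p = 0.0218, limma).

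The locus HNRNPUL2-BSCL2, a readthrough of neighbouring genes, rose (log2 fold change 0.32, SE 0.058, adjusted p = 3.57e-04, limma), with a level of 138, 120.3 and 136 in the shMMP9 libraries, against 105, 108 and 101 in the shControl libraries. It shares 98.8% of its windows with other genes and its exons overlap those of HNRNPUL2, which fell, and of BSCL2, which rose by 0.72 on the log2 scale, so its value cannot be assigned to the readthrough transcript. Of the 50-base windows of HNRNPUL2, 45.2% also occur in this locus, so the level and the fall of HNRNPUL2 are uncertain too. Without the readthrough locus, 13 members rose and 22 fell, with HNRNPUL2 still counted among the falls. The other hnRNPs that did not pass the test, among them HNRNPK, HNRNPU, HNRNPL, HNRNPAB and HNRNPA3, had log2 fold changes between -0.16 and 0.19. HNRNPA1L2, at the upper end of that range, lies on chromosome 13, where 119 of 198 genes with a mean scaled count of 5 or more rose and 20 fell.

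Among the hnRNPs, the call of HNRNPA2B1 ended without shMMP9 replicate 1 (0.15), shMMP9 replicate 2 (0.13), shControl replicate 2 (0.15) or shControl replicate 3 (0.12). The call of HNRNPA1 ended without shMMP9 replicate 1 (-0.19) or shMMP9 replicate 3 (-0.16), that of HNRNPF without shMMP9 replicate 2 (-0.15), shMMP9 replicate 3 (-0.12) or shControl replicate 2 (-0.12), and that of HNRNPR without shControl replicate 3 (0.14). HNRNPL, HNRNPU and HNRNPA3 did not pass with all libraries and were called without shControl replicate 1, with log2 fold changes of -0.26, 0.10 and 0.16. HNRNPH2 was called without shMMP9 replicate 2 (-0.18). Without shControl replicate 3, 3 hnRNPs rose, and under either other scaling 8 rose and 5 fell.

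**Figure D3:**
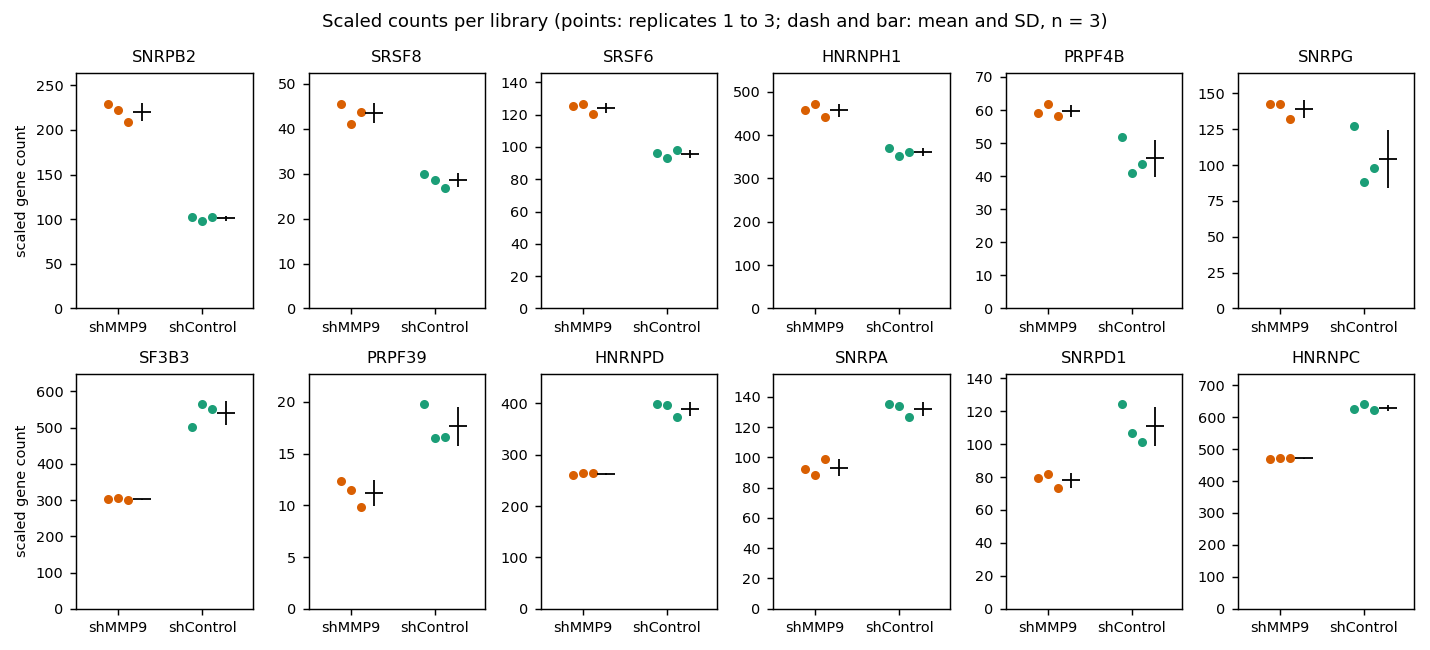
Scaled gene count (vertical axis, starting at 0) of 12 splicing genes in each library, with shMMP9 libraries in orange left of shControl libraries in green, and the mean with its SD (n = 3) as a dash and bar. The upper panels hold genes that rose, the lower panels genes that fell, and in each panel the 2 groups do not overlap.

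Set against the rest of the table, the members lie on its well-measured side: the median of their mean log2 level was 7.07, against 4.06 for all genes tested. The highest member, HNRNPA1, changed by -0.19 on the log2 scale, and the lowest, SRSF12, had a value of -0.02 and did not pass the test.

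**Figure D4:**
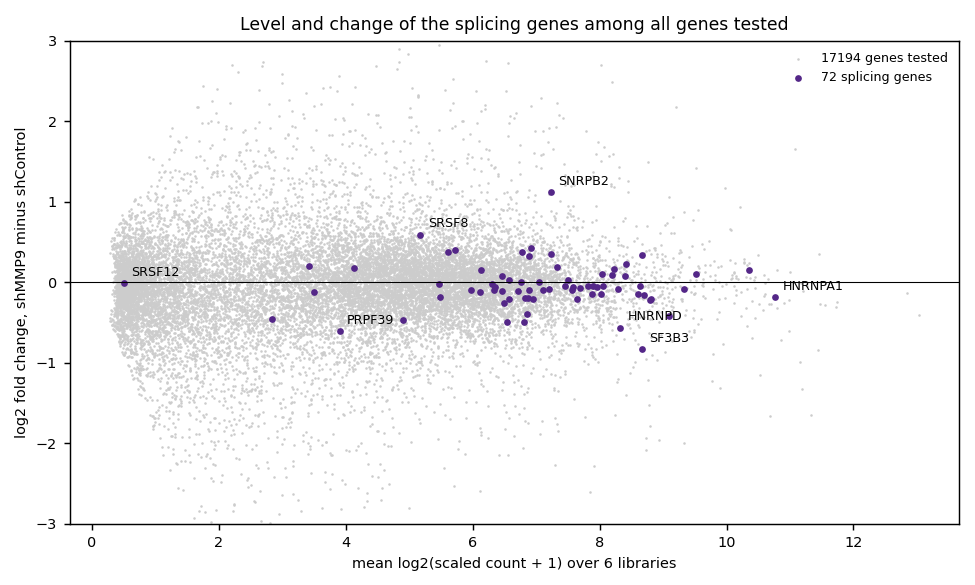
Log2 fold change (shMMP9 minus shControl, vertical axis, cut at 3 in either direction, which leaves out 45 genes) against the mean log2(scaled count + 1) over the 6 libraries (horizontal axis) for the 72 splicing genes in purple and all 17194 genes tested in grey. The purple points sit on the right, and SNRPB2 is the 1 member above a log2 change of 1.

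Other parts of the splicing machinery were described from 7 lists of 187 symbols, of which 182 were tested, and 48 rose and 61 fell. That is 59.9% called, near the 57.5% of all genes tested. Of 33 other proteins of the U1, U2, tri-snRNP and minor particles, 8 rose and 10 fell, a called share of 54.5%. Beside PHF5A, SNRNP35 of the minor U11/U12 particle rose (log2 fold change 0.65, adjusted p = 3.23e-05, limma). SNRNP70, the U1-70K protein, fell (log2 fold change -0.55, adjusted p = 2.40e-07, limma), so 2 of the 3 proteins specific to U1, SNRNP70 and SNRPA, were lower while SNRPC did not pass. TXNL4A, a U5 protein encoded on chromosome 18, also fell (log2 fold change -0.66, adjusted p = 2.81e-07, limma).

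Of 13 LSm proteins, relatives of the Sm proteins, 3 rose and 6 fell. Some of them bind U6 snRNA or act in mRNA decay, but LSM10 is not among these. The rises included LSM10 (log2 fold change 0.52, adjusted p = 4.65e-05, limma) and LSM1 (log2 fold change 0.39, adjusted p = 0.0026, limma). The falls included LSM4 (log2 fold change -0.51, adjusted p = 1.99e-06, limma) and LSM6 (log2 fold change -0.44, adjusted p = 4.78e-04, limma). Of the 13 LSm genes 69.2% were called, against 57.5% of all genes tested. The SMN complex and the PRMT5 methylosome both take part in the assembly of Sm rings on snRNA. Of 15 genes listed for these complexes and related steps 1 rose, PRMT5 (log2 fold change 0.19, adjusted p = 0.00427, limma), and 9 fell. That is 66.7% called, where 25% of all genes tested were higher and 32.5% lower. The median log2 fold change was -0.19, against -0.047 over all genes tested, and no test compared this list with other genes. CLNS1A, the pICln chaperone of Sm proteins, had the fall of most size (log2 fold change -0.45, adjusted p = 1.26e-05, limma), followed by GEMIN8 (log2 fold change -0.39, adjusted p = 0.00975, limma). SMN1 and SMN2 are near-identical, so their reads cannot be assigned with certainty, and both are counted among the 9 falls.

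In the list of PRP19 complex and later-stage factors 11 of 32 rose and 5 fell, with a median of 0.071. The share called was 50%, against 57.5% of all genes tested, of which 25% were higher and 32.5% lower, and the difference between lists was not tested. SLU7, a factor of the second catalytic step, rose (log2 fold change 0.51, adjusted p = 3.62e-06, limma), as did TFIP11, which acts in spliceosome disassembly (log2 fold change 0.38, adjusted p = 0.00154, limma), while XAB2 (log2 fold change -0.42, adjusted p = 9.42e-04, limma) and CWC27 (log2 fold change -0.29, adjusted p = 0.00165, limma) fell. Among 35 SR kinases, SR-related and SR transport genes, 10 rose and 10 fell, so 57.1% were called, against 57.5% of all genes tested. TRA2B, an SR-like regulator, rose (log2 fold change 0.47, adjusted p = 2.63e-06, limma) and so did the SR protein kinase CLK4 (log2 fold change 0.48, adjusted p = 0.0124, limma). The scaffold protein gene SRRM2 fell (log2 fold change -0.53, adjusted p = 3.49e-06, limma), and SCAF1 fell with overlapping groups (log2 fold change -0.42, adjusted p = 0.00287, limma). The call of CLK4 ended without shMMP9 replicate 2 (0.38), shControl replicate 2 (0.38) or shControl replicate 3 (0.42).

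Of 36 tissue-regulated splicing factors tested, 11 rose and 15 fell. That is 72.2% called, against 57.5% of all genes tested, and the difference was not tested. The change of most size was in RBM24 (log2 fold change -1.69, adjusted p = 1.06e-06, limma), and MBNL3 rose (log2 fold change 1.12, adjusted p = 1.93e-06, limma). Both had a mean scaled count under 5, and the genes described next were more strongly expressed. RBM47, an RNA-binding protein of epithelial cells, stood at 18.8, 17.2 and 19.0 in the shMMP9 libraries, against 6.98, 7.77 and 7.28 in the shControl libraries, and rose (log2 fold change 1.21, SE 0.0893, adjusted p = 9.00e-08, limma). RBM5 rose too (log2 fold change 0.81, adjusted p = 4.53e-07, limma), while RBM38 (log2 fold change -0.62, adjusted p = 3.38e-05, limma) and KHDRBS1, the Sam68 gene (log2 fold change -0.50, adjusted p = 6.72e-07, limma), fell. Of 18 genes listed for the exon junction complex and nonsense-mediated decay, which read the marks left by splicing, 4 rose and 6 fell. The list also holds the cap-binding genes NCBP1 and NCBP2. Among the rises were SMG9 (log2 fold change 0.42, adjusted p = 2.78e-05, limma) and SMG6 (log2 fold change 0.26, adjusted p = 0.00476, limma). NCBP2 (log2 fold change -0.45, adjusted p = 6.66e-06, limma) was among the falls. Of the 18 genes 55.6% were called, against 57.5% of all genes tested. Without shMMP9 replicate 1 or shControl replicate 2, 2 of these genes rose.

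**Figure D5:**
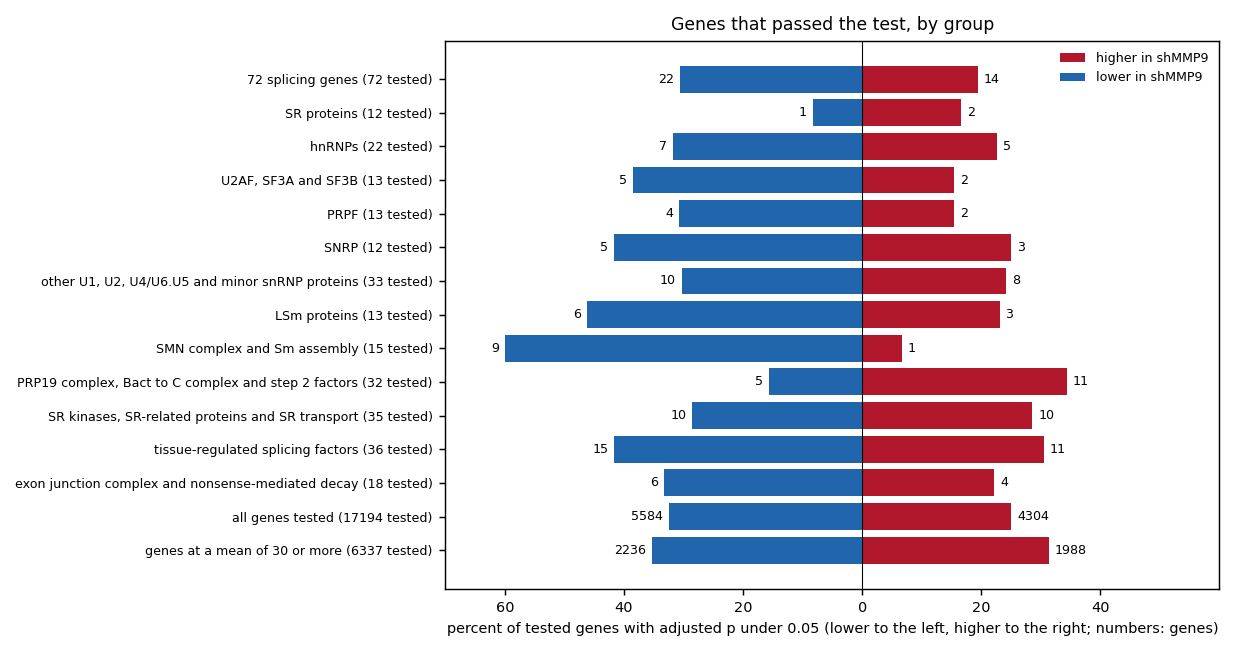
Share of tested genes that passed the test (percent, horizontal axis; higher in shMMP9 to the right in red, lower to the left in blue, with the number of genes at each bar) for the 72 splicing genes, their 5 families, the 7 companion lists and the table as a whole. The SMN and Sm assembly bar reaches farthest to the left, with 9 of 15 genes, and the SR proteins have the shortest blue bar, with 1 of 12.

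Promoter sequences of 63 of the 72 members were matched in RefSeq (GRCh38.p14). In the 250 bases before the start, searched on both strands for motifs of which none contains another, the ETS-type motif CCGGAAGT was found in 22.2% of the members' promoters, against 3.64% of 27305 promoters. The NRF1-type motif was in 14.3% against 5.53%, the Sp1-type motif GGGCGG in 60.3% against 42.3%, and CCAAT in 42.9% against 33%. The E-box CACGTG was in 11.1% against 6.49%. The cAMP response element TGACGTCA was in 1.77% of all promoters and the YY1-type motif AAGATGGCG in 0.641%, and neither was in any of the 63. The ETS-type motif was present in 2 of the 12 matched genes that rose, in 4 of the 17 that fell and in 8 of the 34 that did not pass the test. Sp1-type motifs were in 4 of the 12 that rose, 12 of the 17 that fell and 22 of the 34 that did not pass. CCAAT was in 4 of the 12, 10 of the 17 and 13 of the 34. These counts describe letters in the windows and were not tested against the direction of change. The 27305 promoters were not limited to genes expressed here, and no share was taken over genes at the members' level. Whether the higher shares are particular to splicing genes was therefore not tested.

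How well a member's reads can be assigned differs between genes. The exons of 19 members overlap another listed gene, 15 of them on the opposite strand. In 19 members at least 10% of 50-base windows occur in another gene, and in 26 none do. SNRPA, PRPF39 and PRPF40B are among those with none, and HNRNPD and SF3A2 share under 1%. A picked set of relatives (HNRNPA1L2, U2AF1, U2AF1L4, U2AF1L5, SNRPN, SNRPB, SRSF8 and SRSF2) was left out together with the readthrough locus. That left 11 members that rose and 20 that fell. The set does not follow shared windows: SRSF2 has none, while SNRPA1 (41.5%), HNRNPA1 (28.8%) and HNRNPC (27.6%) stayed in. Whether the counts hold without all members of shared sequence was not tested.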

How the data were processed

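Total RNA of A375 cells was sequenced in 6 libraries, 3 shMMP9 and 3 shControl, grouped by the labels' treatment field. The submitters' processing notes name STAR 2.6.1d, Partek and hg38. How reads were counted, with which annotation and strand setting, is not given in the sources used here. Deposited values are on a log2 scale and hold log2(scaled count + 1), although the table is named for counts: on the linear scale every library has the same 75th percentile (45.4), and 64.6 to 67.8% of values per library are whole multiples of 1 step within 0.01 reads. That step gave the estimated reads and depths in the text. The remaining values were not whole, so the planned count test was not used.

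The deposited log2 values (pseudocount of 1) were fitted over all genes in limma (version 3.58.1, R 4.3.3) with moderated variances that follow a trend and no block. A gene was tested if 3 libraries reached 10 reads scaled to the median depth and its reads totalled 15, a filter that 17194 genes passed and 1345 did not. Benjamini-Hochberg adjustment ran over all tested genes, and 0.05 was the threshold. Differences between partner genes were tested by exact permutation over libraries. The pairs joined genes whose fold changes were already known, so these p-values only describe the pairs. The procedure was checked on simulated data.

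The members, companion lists and partner pairs were chosen with earlier results of these data known. Full values are given in each family for up to 3 called rises and 3 called falls with a mean scaled count of 5 or more and for the highest gene per kilobase, and in each list for up to 2 rises and 2 falls. Some genes that this rule takes are not reported here, though they stay in the counts. Other members are named as partners or subunits of these, after their values were seen. The planned wording left out readthrough loci, but the symbol pattern holds HNRNPUL2-BSCL2, which was kept and is also left out as an alternative. GENCODE release 29 (GRCh38) held 99.9% of the symbols, and 23 genes whose symbols had become dates stayed unnamed. Shared windows are runs of 50 bases of the longest principal transcript that occur in transcripts of another gene. Same-numbered libraries of the 2 groups did not deviate together, so the numbers were not taken as pairs. Figures were drawn with matplotlib 3.10.9. Alternatives were a replicate block, each library left out, 2 other scalings, no filter and pseudocounts of 0.25 and 4. Others were no variance trend, limma-voom and a threshold of 0.01. Leaving out the readthrough locus, alone or with the picked set of relatives, was added after seeing the data.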

Additional observations from a re-analysis of the deposited data

How the results depend on the processing

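The fall of MMP9 held under every alternative run, with log2 fold changes between -0.75 and -0.61. Of the 36 called members, 25 kept their call in all 14 refits, 11 lost it in at least 1 and 0 changed sign, and 13 other members were called in at least 1. At an adjusted p of 0.01, 9 members rose and 16 fell, against 3379 and 4428 of all genes. The median of the members moved to -0.009 with median-of-ratios scaling and to -0.01 with total-read scaling. Leaving out each library gave 10 to 16 members higher and 17 to 26 lower, and 3759 to 4511 genes higher and 4917 to 5714 lower over the whole table. With the replicate number as a block, 13 members rose and 21 fell, against 4211 and 5486 of all genes. The block ended the calls of HNRNPA1 (HNRNPA1 log2 fold change -0.19, adjusted p = 0.0517, limma) and HNRNPA2B1 (HNRNPA2B1 log2 fold change 0.16, adjusted p = 0.0805, limma) among the members called. The correlation of same-numbered libraries was 0.04, -0.13 and -0.026, and not every library correlated best with its own number, so the numbers do not show a pairing. Without the variance trend 10 members rose and 18 fell, against 4072 and 5316 of all genes. With limma-voom 14 members rose and 22 fell, against 4305 and 5524 of all genes. The cause of these shifts was not tested. Weak members such as SRSF12 are limited by depth.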
